A study of Mus musculus with 10 samples.

Results

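Red2Kras mice carry an inducible multicolour cassette in which cells that recombine to red fluorescent protein (RFP) also express the mutant allele of the line, whereas cells that recombine to yellow fluorescent protein (YFP) in the same lungs stay wildtype. The comparison described here sets RFP+ mutant cells against YFP+ wildtype cells at 4 days after induction, the earliest time point of the series. It rests on 4 of the 10 libraries, labelled Red2Kras 4d RFP (replicates 1 and 2) and Red2Kras 4d YFP (replicates 1 and 2), which are called RFP 1, RFP 2, YFP 1 and YFP 2 below. Both groups share the genotype Sftpc-CreERT2; Red2Kras, were induced with 3 doses of tamoxifen at 0.2 mg per g of body weight in mice from 8 weeks of age, and were sorted from the distal lung as EpCAM+ cells of 1 colour. Cre in these mice is driven from Sftpc, the surfactant protein C gene, so that recombination starts in alveolar type 2 (AT2) cells. At least 2 lungs were pooled per sample. The Confetti libraries (Sftpc-CreERT2; R26R-Confetti, both colours wildtype, 1 library each) serve as a level without any mutant cell in the lung, and were taken at 2 weeks by the study's methods. Members of the comparison were all barcodes with at least 1000 genes, at most 50000 unique molecular identifiers (UMIs), at most 15% mitochondrial UMIs and no UMI of Ptprc, the pan-leukocyte antigen CD45. Of 30599 cells kept in the series, 10195 belonged to these 4 libraries: 3801 in RFP 1, 1579 in RFP 2, 1826 in YFP 1 and 2989 in YFP 2.

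AT2 cells are the surfactant-making stem cells of the alveolus. After injury they can lose surfactant gene expression, gain keratins and pass through a transitional state known as the damage-associated transient progenitor (DATP) before they become flat alveolar type 1 (AT1) cells. The epidermal growth factor receptor (EGFR) and the small GTPases below it drive the RAF, MEK and ERK kinase cascade, whose targets include its own inhibitors (dual-specificity phosphatases and Sprouty proteins), AP-1 transcription factors and ligands of EGFR itself.

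The 2 libraries of each colour differed strongly, and this bears on every result. Summed over kept cells and without mitochondrial genes, the libraries held 19808890 (RFP 1), 9082667 (RFP 2), 11171916 (YFP 1) and 18937007 UMIs (YFP 2), with 4737, 5144, 5919 and 6160 UMIs in the median cell. Cells with Xist and no Y-linked UMI made up 82.3% of the cells that could be assigned a sex in RFP 1 and 83.7% in YFP 1, but 0.383% in RFP 2 and 0.179% in YFP 2, so that libraries of the same number had mice of like sex and libraries of 1 colour did not. The filter on Ptprc removed 0.964% of cells that passed quality in RFP 1, 9.04% in RFP 2, 4.55% in YFP 1 and 3.27% in YFP 2. Of the cells kept, 2.87%, 10.6%, 8.60% and 3.58% still held 3 or more UMIs of immune, endothelial, mesenchymal or ciliated markers, mostly of immune genes in RFP 2 (130 cells) and of endothelial genes in YFP 1 (86 cells). Pairs of these libraries shared between 1 and 4 kept barcodes. No library repeated another (chi-square per degree of freedom between replicates 157.5 for RFP and 81.39 for YFP), and each was counted as 1 replicate.

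Across all genes, no difference between RFP+ and YFP+ cells passed the main test. The quasi-likelihood test of edgeR called 0 of 14856 genes at an adjusted p (Benjamini-Hochberg) under 0.05, and the lowest adjusted p was 0.9988. At an unadjusted p under 0.05 there were 511 genes (3.44% of those tested), 382 higher and 129 lower in RFP. DESeq2 called 39 genes from the same counts, 38 of them higher in RFP, and edgeR without a filter on low counts called 99 of 21599. With the library number as a block edgeR called 3 of 14022 genes over the 8 Red2Kras libraries (Cxcl3 among them) and 1 of 12914 (Dlk1) over the 4 libraries of 4 days. Because nothing passed the main test, genes are described below by their level in each library, in CPM (summed UMI counts scaled by TMM factors to the same library total), and by whether both RFP libraries lay above or below both YFP libraries. Both RFP libraries lay above both YFP libraries for 12.6% of all genes tested and below them for 13.6%, the background for every such count. A difference of over 2-fold in both same-numbered pairs was seen for 245 genes higher (1.65%) and 111 genes lower (0.747%) in RFP. The labels do not name the mice of a replicate, but the shares of female cells given above differ so far between replicates of 1 colour that these did not hold the same pool of mice. Fitted values are given as log2 fold changes of RFP over YFP with their standard errors (SE), and every gene so described had an adjusted p of at least 0.9988 in edgeR.

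The size of the colour difference also depended on the library number. Over 12553 genes with at least 50 UMIs, the median absolute log2 ratio of RFP to YFP was 0.2 between libraries numbered 1 and 0.436 between libraries numbered 2. The same measure was 0.457 between the RFP replicates and 0.381 between the YFP replicates, so 2 libraries of 1 colour differed by more than RFP 1 did from YFP 1. A log2 ratio beyond 1 in both pairs was reached by 474 genes, of which 141 were higher in RFP in both, 59 lower in both and 274 went in opposite directions. Across genes, which are not independent replicates, the ratio in pair 1 and the ratio in pair 2 had a Pearson correlation of 0.0881. On a log scale the profile of RFP 1 was closest to wildtype cells (r = 0.973 with Confetti RFP and 0.966 with YFP 1, against 0.883 with RFP 2), whereas the highest correlations of RFP 2 were with libraries of 2 weeks (r = 0.928 with RFP replicate 1 and 0.927 with YFP replicate 2, against 0.917 with YFP 2).

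**Figure D1:**
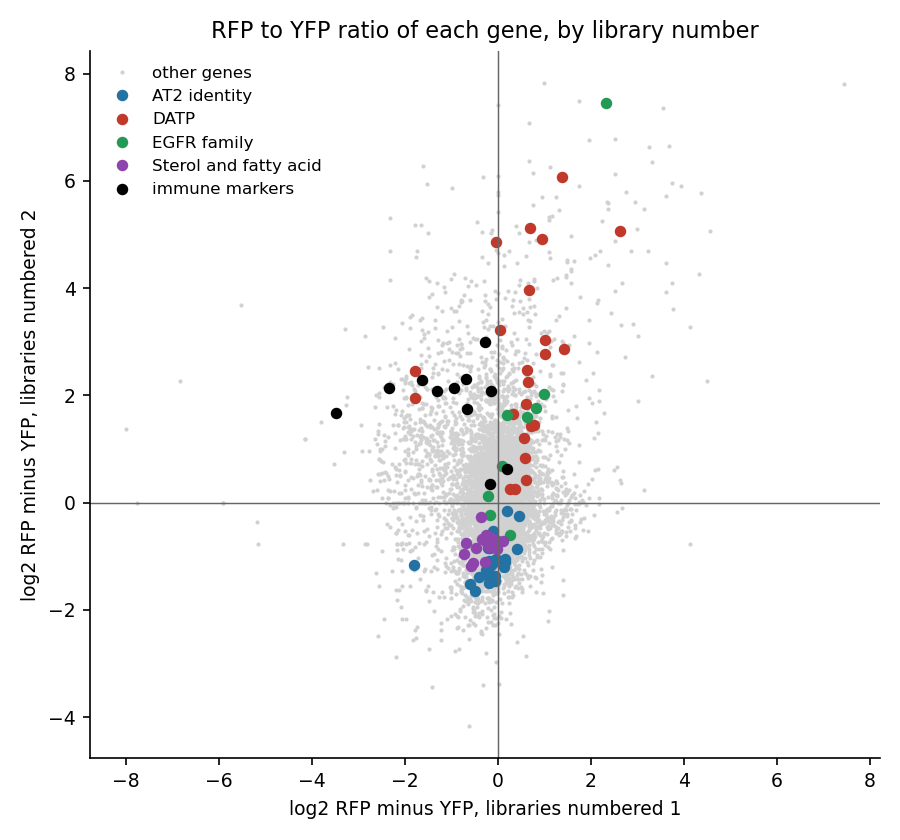
Each point is 1 gene, placed by its log2 ratio of RFP to YFP in the libraries numbered 1 (x axis) and numbered 2 (y axis), with 5 gene lists coloured and the other genes of at least 50 UMIs in grey. DATP and EGFR family genes lie mostly to the upper right, AT2 and sterol genes to the lower left, and immune marker genes spread along the y axis, with a summed level of 830.7 CPM in RFP 2 and 32.9 CPM in RFP 1.

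Genes of the DATP state were higher in mutant cells already at 4 days. Of 23 DATP genes tested, both RFP libraries lay above both YFP libraries for 17 and below for 0, with a median log2 fold change of 1.54 against -0.0316 over all genes tested. RFP 1 alone lay above both YFP libraries for 18 of the 23 (24.7% of all genes did so) and RFP 2 alone for 20 (34.9%). The simple-epithelial keratins, the intermediate filament proteins by which this state is recognised, showed it at levels far from 0. Krt8 had 427 and 671 CPM in the RFP libraries and 287 and 292 CPM in the YFP libraries (log2 fold change 0.92, SE 0.32). Krt18, the partner with which Krt8 forms filaments, had 642 and 898 CPM in RFP and 377 and 329.6 CPM in YFP (log2 fold change 1.12, SE 0.36). Both YFP libraries were close to each other, and both RFP libraries exceeded them. In the wildtype Confetti lungs Krt8 stood at 298 CPM in Confetti RFP and 268 CPM in Confetti YFP, close to the YFP libraries. Krt7 (144 and 681 CPM (RFP) against 71.1 and 82.6 CPM (YFP)) and Krt19 (126 and 272 CPM (RFP) against 79.8 and 56.7 CPM (YFP)) were ordered the same way, with a larger step in RFP 2.

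Other genes of the DATP list were high chiefly in RFP 2, among them Itga2, Cldn4, Plaur and F3, which stood at 12.7 CPM or less in both YFP libraries. Itga2, the collagen-binding integrin subunit alpha 2, which stands in the list without being an established marker of the state, had 5.18 and 152 CPM in the RFP libraries and 1.95 and 2.16 CPM in the YFP libraries (log2 fold change 5.24, SE 1.5). Cldn4, a tight junction claudin, had 16.6 and 186 CPM in RFP and 2.63 and 5.46 CPM in YFP (log2 fold change 4.63, SE 1.21). Plaur, the urokinase receptor, had 17.3 and 194 CPM in RFP and 8.98 and 6.37 CPM in YFP (log2 fold change 3.78, SE 1.26). For all 3 the RFP and YFP libraries did not overlap, but RFP 1 stood closer to the YFP libraries than to RFP 2. Most of the YFP level of Plaur and Itga2 lay in cells with 3 or more UMIs of other-type markers, which the fold changes above include. Without them Plaur had 15.9 and 193 CPM (RFP) against 1.27 and 1.23 CPM (YFP). Itga2 then had 4.98 and 163 CPM (RFP) against 0 and 0.616 CPM (YFP). F3, tissue factor, which starts coagulation, followed with 20.2 and 153 CPM in RFP and 12.7 and 9.73 CPM in YFP. The chaperone clusterin (Clu) had 385 and 2410.1 CPM (RFP) against 191 and 354 CPM (YFP) and galectin-3 (Lgals3) had 255 and 1274 CPM (RFP) against 164 and 229 CPM (YFP), again with the highest value in RFP 2. Tnip3, which encodes an inhibitor of NF-kB signalling, differed less between the RFP libraries, with 12.2 and 34.4 CPM in the RFP libraries and 4.49 and 4.62 CPM in the YFP libraries (log2 fold change 2.34, SE 0.49), and was among the 39 genes that DESeq2 called. Among the members whose libraries overlapped was Ndrg1 (5.18 and 159 CPM (RFP) against 5.34 and 5.4 CPM (YFP)), high in RFP 2 alone.

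**Figure D2:**
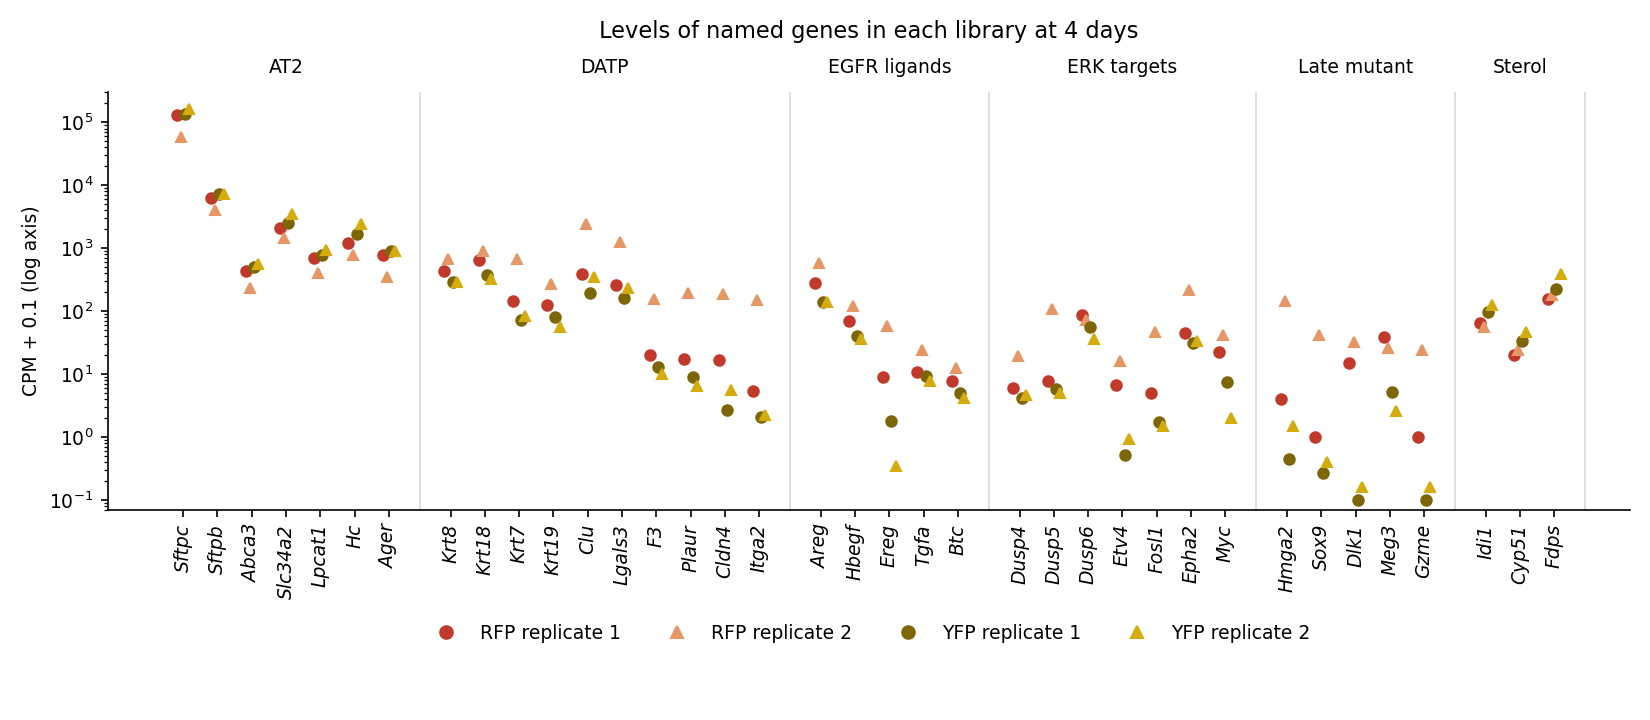
Level of each named gene (x axis, grouped by role) in the 4 libraries of 4 days as CPM plus 0.1 on a log axis (y axis), 1 point per library, red tones for RFP and yellow tones for YFP, circles for replicate 1 and triangles for replicate 2. RFP points lie above YFP points for the DATP, EGFR ligand and ERK target genes and below them for the AT2 and sterol genes, and RFP 2 (triangles) lies farther out than RFP 1 for most genes, for instance at 152 against 5.18 CPM for Itga2.

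The promoter windows of these genes were read from RefSeq (GRCm38.p6), 250 bases before to 50 bases after the start of each transcript, and searched on both strands for 5 motifs, none of which is contained in another: AP-1 (TGANTCA), NF-kB (GGANTTTCC), the cyclic AMP response element CRE (TGACGTCA), ETS (CCGGAAGT) and the sterol element SRE (TCACNCCAC). AP-1 letters stood in 5 of 20 windows of DATP genes (25%; Cldn4, F3 and Plaur among them) and in 7.81% of all 32851 windows. A match is a description of these letters and not a bound site. The 3 promoters shown are those of DATP genes that did not overlap between the colours and whose levels are given above, printed up to the base before the transcript start with the AP-1 letters in capitals.
Cldn4: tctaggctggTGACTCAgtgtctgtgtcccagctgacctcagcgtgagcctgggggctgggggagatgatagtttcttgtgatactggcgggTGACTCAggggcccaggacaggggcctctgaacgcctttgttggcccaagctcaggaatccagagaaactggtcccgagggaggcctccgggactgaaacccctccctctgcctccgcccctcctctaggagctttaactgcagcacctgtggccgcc
Plaur: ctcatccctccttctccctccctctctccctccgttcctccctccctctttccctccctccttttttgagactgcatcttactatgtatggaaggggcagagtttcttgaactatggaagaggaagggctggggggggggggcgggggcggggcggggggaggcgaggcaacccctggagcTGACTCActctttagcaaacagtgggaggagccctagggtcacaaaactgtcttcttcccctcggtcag
F3: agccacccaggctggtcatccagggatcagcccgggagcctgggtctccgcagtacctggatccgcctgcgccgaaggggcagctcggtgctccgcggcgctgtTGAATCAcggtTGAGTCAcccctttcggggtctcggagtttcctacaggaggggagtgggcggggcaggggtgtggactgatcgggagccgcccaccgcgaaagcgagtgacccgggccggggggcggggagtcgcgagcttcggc
The Cldn4 promoter (chr5:134946935-134947184, minus strand) holds 2 matches, which begin 240 and 158 bases before the start. That of Plaur (chr7:24462233-24462482, plus strand) holds 1, at 69 bases, and that of F3 (chr3:121723287-121723536, plus strand) holds 2, at 146 and 135 bases. Fosl1, which encodes an AP-1 subunit and is itself a target of ERK, had 4.98 and 46.2 CPM in the RFP libraries and 1.61 and 1.38 CPM in the YFP libraries (log2 fold change 4.09, SE 0.95). It was higher in both RFP libraries, by a much larger step in RFP 2.

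Ligands of the EGFR family were higher in mutant cells, whereas their receptors were not. Of 10 family members tested, 7 lay higher in both RFP libraries and 0 lower. Their median log2 fold change was 1.10 (median log2 ratio 0.45 in pair 1 and 1.62 in pair 2). Amphiregulin (Areg) had 280.2 and 574 CPM in the RFP libraries and 140.2 and 141 CPM in the YFP libraries (log2 fold change 1.60, SE 0.40). Heparin-binding EGF-like growth factor (Hbegf) had 70.7 and 121 CPM in RFP and 40.1 and 35.4 CPM in YFP (log2 fold change 1.34, SE 0.36). Epiregulin (Ereg) had 8.83 and 57.2 CPM in RFP and 1.69 and 0.24 CPM in YFP (log2 fold change 5.16, SE 1.10). In each case both RFP libraries exceeded both YFP libraries, and for Areg the 2 YFP values were nearly equal. The Confetti libraries held 159 CPM in Confetti RFP and 112 CPM in Confetti YFP of Areg and 0.474 CPM in Confetti RFP and 0.623 CPM in Confetti YFP of Ereg. Betacellulin (Btc; 7.67 and 12.4 CPM (RFP) against 4.91 and 4.02 CPM (YFP)) and transforming growth factor alpha (Tgfa; 10.7 and 24.4 CPM (RFP) against 9.23 and 7.75 CPM (YFP)) were ordered alike at lower levels. Epgn, the ligand epigen, had 19 UMIs over both RFP libraries and 0 over both YFP libraries, at least 6.23-fold higher against a floor of 3 UMIs over the YFP group (4.33-fold with RFP 1 alone and 10.3-fold with RFP 2 alone). The receptors overlapped between the colours: Erbb2 had 13.4 and 16.4 CPM in RFP and 15 and 19.2 CPM in YFP. Erbb3 had 36.4 and 27 CPM in RFP and 30.2 and 41.3 CPM in YFP. Egfr itself was at 3.5 and 3.36 CPM in RFP and 4.07 and 3.06 CPM in YFP, with no order between the colours. Errfi1, a feedback inhibitor of the receptor, was higher in both RFP libraries (328 and 387 CPM (RFP) against 308 and 242 CPM (YFP)), but overlapped without cells with other-type markers (332 and 418 CPM (RFP) against 344 and 240.1 CPM (YFP)).

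Areg and Ereg lie in 1 region of chromosome 5 of GRCm38 (Areg at 91139599 to 91148432 and Ereg at 91074622 to 91093646, both plus strand). The Areg promoter is shown because it is the only one of the ligands' promoter windows with CRE letters (capitals), which 1.79% of all windows hold, while Errfi1 was the other family member with a match.
Areg: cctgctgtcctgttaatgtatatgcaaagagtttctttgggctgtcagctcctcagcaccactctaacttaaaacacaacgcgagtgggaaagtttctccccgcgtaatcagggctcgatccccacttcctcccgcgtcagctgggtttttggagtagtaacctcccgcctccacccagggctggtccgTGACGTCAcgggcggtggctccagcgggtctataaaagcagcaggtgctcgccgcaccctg
The match in this window (chr5:91139349-91139598, plus strand) begins 61 bases before the start.

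Among the 22 listed targets and feedback inhibitors of ERK, 10 lay higher in both RFP libraries and 0 lower. Their median log2 fold change was 0.607 (median log2 ratio 0.443 in pair 1 and 0.792 in pair 2). RFP 1 alone lay above both YFP libraries for 16 of them and RFP 2 alone for 15. Etv4, an ETS transcription factor induced by ERK, had 6.7 and 15.8 CPM in the RFP libraries and 0.424 and 0.841 CPM in the YFP libraries (log2 fold change 4.10, SE 0.83), and the Confetti libraries had 0.356 and 0.374 CPM. Each RFP library thus exceeded the YFP libraries and the Confetti libraries. Etv5, another ETS gene, is not in this list and lay lower in both RFP libraries (levels given below). Myc, a growth-promoting transcription factor, had 22.4 and 41.1 CPM in RFP and 7.45 and 1.92 CPM in YFP (log2 fold change 2.77, SE 0.68). Of the phosphatases that switch ERK off, Dusp6 had 86.6 and 72.1 CPM in RFP and 56.5 and 35.3 CPM in YFP, Dusp4 had 5.94 and 19.2 CPM in RFP and 4.07 and 4.5 CPM in YFP, and Dusp5 had 7.51 and 109 CPM in RFP and 5.59 and 4.86 CPM in YFP. RFP exceeded YFP in all pairs for these 3, by the widest margin for Dusp5 in RFP 2. Epha2, an ephrin receptor, showed 45.2 and 218 CPM in RFP and 30.6 and 33.5 CPM in YFP. Spry2 (277 and 446 CPM (RFP) against 202 and 295 CPM (YFP)) and Ccnd1, cyclin D1 (182 and 201 CPM (RFP) against 119.8 and 183 CPM (YFP)), overlapped.

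Of 20 genes of the Ras and RAF machinery itself, 5 lay higher in both RFP libraries and 1 lower (7 and 3 with markers of 4 other cell types at 0). Nras, a small GTPase of the family, had 23.9 and 53.7 CPM in RFP and 21.8 and 23.1 CPM in YFP. The RAF kinase gene Braf was the member that lay lower in both RFP libraries (28 and 19 CPM (RFP) against 30.2 and 28.4 CPM (YFP)).

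Chemokines that recruit neutrophils and a myeloid growth factor were higher in both RFP libraries. Of 17 chemokine and cytokine genes tested, 9 lay higher and 0 lower. Their median log2 fold change was 1.37 (median log2 ratio 0.792 in pair 1 and 1.37 in pair 2). Cxcl1 had 61.8 and 45.1 CPM in the RFP libraries and 13.9 and 18.3 CPM in the YFP libraries (log2 fold change 1.73, SE 0.55). Cxcl3 had 51.5 and 112 CPM in RFP and 7.71 and 17.1 CPM in YFP (log2 fold change 2.72, SE 0.52). Cxcl2 had 58.9 and 76.9 CPM in RFP and 13.6 and 27 CPM in YFP (log2 fold change 1.74, SE 0.71). Much of the Cxcl2 of the libraries numbered 2 lay in cells with other-type markers, and without these it had 57.6 and 18.2 CPM (RFP) against 9.61 and 6.71 CPM (YFP). RFP and YFP did not overlap for these 3 ligands of the receptor CXCR2, and RFP exceeded YFP by over 2-fold within both same-numbered pairs. Csf2, the cytokine GM-CSF that alveolar macrophages depend on, had 68.1 and 263 CPM in RFP and 36.3 and 48.2 CPM in YFP. Cxcl5 had 5.18 and 15.9 CPM in RFP and 1.1 and 1.08 CPM in YFP, and Tslp, an epithelial alarm cytokine, had 3.81 and 5.85 CPM in RFP and 1.52 and 0.24 CPM in YFP. Both RFP libraries were again the higher ones. Without cells with other-type markers Tslp had 3.36 and 1.7 CPM (RFP) against 0.098 and 0.185 CPM (YFP). Ccl20 overlapped (12.8 and 65 CPM (RFP) against 2.2 and 42.5 CPM (YFP)) and was high in both libraries numbered 2. Of 10 chemokine promoters in the RefSeq table, 6 (60%; Cxcl1, Cxcl2 and Cxcl3 among them) held the NF-kB letters, against 1.25% of all windows. Those of Cxcl1 and Cxcl3 are shown with these letters in capitals.
Cxcl1: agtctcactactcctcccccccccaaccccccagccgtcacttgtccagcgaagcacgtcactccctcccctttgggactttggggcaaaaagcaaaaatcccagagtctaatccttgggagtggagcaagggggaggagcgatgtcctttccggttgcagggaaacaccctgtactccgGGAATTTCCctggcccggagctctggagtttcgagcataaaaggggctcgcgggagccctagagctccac
Cxcl3: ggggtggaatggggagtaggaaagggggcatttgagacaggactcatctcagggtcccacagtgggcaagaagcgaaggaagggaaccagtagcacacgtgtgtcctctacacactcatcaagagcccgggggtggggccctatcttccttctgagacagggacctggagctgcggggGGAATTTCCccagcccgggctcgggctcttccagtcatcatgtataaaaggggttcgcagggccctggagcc
The match begins 70 bases before the start of Cxcl1 (chr5:90890995-90891244, plus strand) and 72 bases before that of Cxcl3 (chr5:90785851-90786100, plus strand). These genes lie in 1 cluster on chromosome 5 (Cxcl5 from 90759360, Cxcl3 from 90786103 and Cxcl2 from 90903871 of GRCm38). How reads shared by near-identical chemokine copies were counted was not checked.

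Genes of NF-kB and interleukin-1 signalling gave a mixed picture, with 6 of 23 higher and 2 lower in all pairs. The higher count was 3 when the Ptprc filter was not applied, when 11.9% of all genes were higher, and the lower count was 4 without cells with other-type markers. Nfkb2, a subunit of the alternative pathway, had 14.2 and 35.8 CPM in RFP and 10.2 and 12.9 CPM in YFP. Tnfaip3, an inhibitor induced by the pathway, had 11.7 and 27.8 CPM in RFP and 10.6 and 8.89 CPM in YFP. In both, RFP 1 lay only just above the YFP libraries. Nfkbia, the inhibitor I-kappa-B alpha, had 335 and 157 CPM in RFP and 284 and 144 CPM in YFP and followed the library number rather than the colour. The interleukin-1 receptor Il1r1 did the same (18.4 and 9.1 CPM (RFP) against 18 and 8.71 CPM (YFP)).

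**Figure D3:**
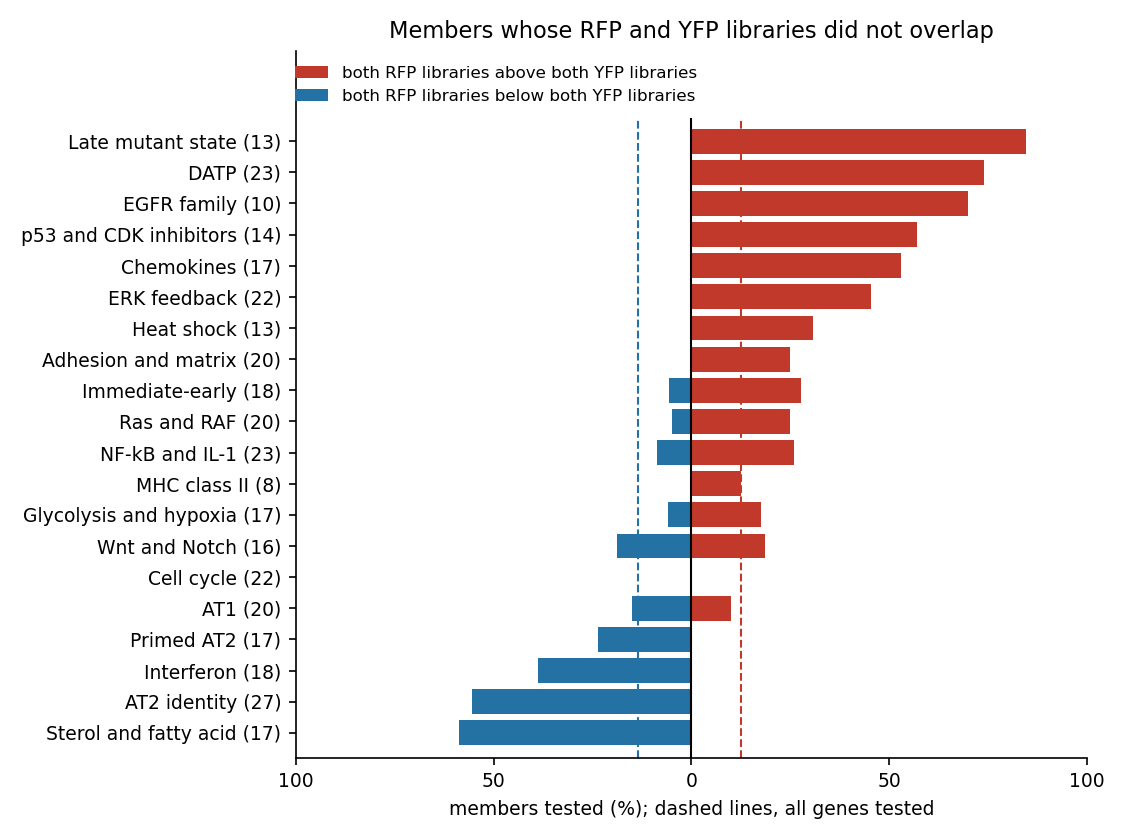
For each gene list (y axis, number of members tested in parentheses), the bars give the percentage of members (x axis) for which both RFP libraries lay above (red, to the right) or below (blue, to the left) both YFP libraries, and the dashed lines mark the same for all genes tested (12.6% and 13.6%). The DATP bar reaches 17 of 23 members to the right and the sterol bar 10 of 17 to the left, while the cell cycle list has no bar on either side.

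AT2 identity genes were lower in RFP, mainly in replicate 2. Of 27 genes, 15 lay lower in both RFP libraries and 0 higher, with a median log2 fold change of -0.544. RFP 2 alone lay below both YFP libraries for all 27 (37.1% of all genes did so), and RFP 1 alone for 15 (26% of all genes). Sftpc, the surfactant protein that defines the lineage and drives Cre here, had 130871 and 59077 CPM in the RFP libraries and 136481 and 162153 CPM in the YFP libraries (log2 fold change -0.65, SE 0.47). Abca3, the lipid pump of lamellar bodies, had 428 and 231 CPM in RFP and 509.9 and 553 CPM in YFP (log2 fold change -0.69, SE 0.33). Slc34a2, the phosphate transporter of AT2 cells, had 2125 and 1432 CPM in RFP and 2514 and 3525 CPM in YFP (log2 fold change -0.76, SE 0.33). For each of them RFP 1 was only a little under the lower YFP library, while RFP 2 stood far below. Sftpb, a second surfactant protein, had 6367 and 4027 CPM in RFP and 7394 and 7212 CPM in YFP, and Lpcat1, which makes surfactant lipid, had 706 and 409.8 CPM in RFP and 791 and 928 CPM in YFP. Hc, complement component C5 made by AT2 cells, differed in both replicates, with 1189 and 768 CPM in RFP and 1671 and 2420.3 CPM in YFP (log2 fold change -1.06, SE 0.49). Transcription factors of the lineage overlapped, with Nkx2-1 at 289.9 and 121 CPM in RFP and 331 and 257 CPM in YFP and Cebpa at 207 and 104 CPM in RFP and 232 and 188 CPM in YFP, where RFP 2 was the lowest library. Etv5, which keeps AT2 cells in their state, lay lower in all pairs (303 and 161 CPM (RFP) against 330.3 and 346 CPM (YFP)). The count of 15 lower AT2 genes was 16 when cells with other-type markers were left out, 12 with library totals in place of TMM factors, 11 with cells thinned to 2000 UMIs and 10 when the Ptprc filter was not applied. In sums over sorted cells, fewer cells of a state and less RNA per cell cannot be told apart.

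Markers of AT1 cells did not move in 1 direction, with 2 of 20 higher (4 without the Ptprc filter) and 3 lower in both RFP libraries. Ager, the receptor by which AT1 cells are known and which AT2 libraries also hold, was lower (787 and 348 CPM (RFP) against 898 and 902 CPM (YFP)). Pdpn, podoplanin, was higher (11.6 and 22.9 CPM (RFP) against 4.32 and 4.92 CPM (YFP); log2 fold change 1.89, SE 0.50). The 17 genes of the primed AT2 state, which encode acute-phase and secreted proteins, were lower in both RFP libraries for 4 and higher for 0 (2 lower with cells thinned to 2000 UMIs, when 10.9% of all genes were). Of these 4, haptoglobin (Hp) had 433 and 484 CPM in RFP and 739 and 1484 CPM in YFP (log2 fold change -1.28, SE 0.39). The alarm cytokine Il33 had 203 and 248 CPM in RFP and 277 and 838 CPM in YFP (log2 fold change -1.31, SE 0.57). Both were highest in YFP 2. Lcn2, lipocalin 2, overlapped between the colours and was higher in RFP 2 than in RFP 1 (3776 against 2334 CPM) as well as in YFP 2 than in YFP 1 (7102 against 1874 CPM).

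Genes of sterol and fatty acid synthesis were lower in mutant cells, in RFP 1 as well as in RFP 2. Of 17 tested, 10 lay lower in both RFP libraries and 0 higher. Their median log2 fold change was -0.509 (median log2 ratio -0.266 in pair 1 and -0.746 in pair 2). RFP 1 alone lay below both YFP libraries for 15 of 17 and RFP 2 alone for 11. Idi1, an isomerase of the isoprenoid pathway, had 65.4 and 55.7 CPM in the RFP libraries and 97.6 and 127 CPM in the YFP libraries (log2 fold change -0.89, SE 0.28). Cyp51, a demethylase of sterol synthesis, had 19.9 and 24.2 CPM in RFP and 33.1 and 46.7 CPM in YFP (log2 fold change -0.86, SE 0.27). In both genes the RFP libraries were close to each other and below both YFP libraries. Fdps, which makes farnesyl diphosphate, had 156 and 180.2 CPM in RFP and 224 and 395 CPM in YFP. Scd1 and Fasn, lipid synthesis enzymes that are also in the AT2 list, had 3275 and 3353 CPM (RFP) against 4943 and 9561 CPM (YFP) and 391 and 345 CPM (RFP) against 519 and 897 CPM (YFP), with the highest value in YFP 2. Of 16 sterol gene windows, 1 held the SRE letters (Hmgcs1), against 1.24% of all windows. Epas1, the hypoxia-inducible factor HIF-2 alpha, was lower in both RFP libraries, with 98.4 and 74.1 CPM in the RFP libraries and 182 and 212 CPM in the YFP libraries (log2 fold change -1.19, SE 0.28), and was the only lower gene that DESeq2 called. Without cells with other-type markers it had 85.3 and 78.7 CPM (RFP) against 129 and 209 CPM (YFP), with a lower level in YFP 1. Confetti libraries had 185 CPM in Confetti RFP and 182 CPM in Confetti YFP, at the level of the YFP libraries.

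Interferon response genes lay lower in both RFP libraries for 7 of 18 and higher for 0, for instance Oasl2 (1.98 and 4.66 CPM (RFP) against 5.68 and 7.21 CPM (YFP)). This count was 0 when cells with 3 or more UMIs of other-type markers were left out, and 4 when the Ptprc filter was not applied. Of 8 MHC class II genes, which AT2 cells express, 1 lay higher in both RFP libraries, a share no larger than that of all genes. This was H2-Eb1, with 867 and 936 CPM in RFP and 779.6 and 684 CPM in YFP. Without cells with other-type markers it overlapped between the colours (875 and 382 CPM (RFP) against 849.9 and 619.6 CPM (YFP)).

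Genes of a list of p53 targets and inhibitors of cyclin-dependent kinases were higher in both RFP libraries for 8 of 14 and lower for 0. Their median log2 fold change was 0.757 (median log2 ratio 0.189 in pair 1 and 1.06 in pair 2). Bax, a pro-apoptotic BCL2 protein, had 175 and 276 CPM in the RFP libraries and 112 and 144 CPM in the YFP libraries (log2 fold change 0.82, SE 0.39). Ccng1, cyclin G1, had 40.9 and 44.6 CPM in RFP and 30 and 29.3 CPM in YFP (log2 fold change 0.53, SE 0.22). The RFP libraries exceeded the YFP libraries in both. Cdkn1a, the cell cycle inhibitor p21, which stands in the DATP list, had 224 and 313 CPM in RFP and 177 and 99.1 CPM in YFP. Cdkn2a, which encodes p16 and p19ARF, was low everywhere, with 1.22 and 6.72 CPM in RFP and 0.678 and 0.3 CPM in YFP. Gdf15, a stress-induced cytokine that stands in none of the lists, had 157 and 159.5 CPM in the RFP libraries and 66.6 and 42.9 CPM in the YFP libraries (log2 fold change 1.53, SE 0.28), with RFP libraries nearly equal. Pf4, a chemokine known from platelets and outside the lists, had 90.5 and 87.7 CPM in RFP and 28 and 25.2 CPM in YFP (log2 fold change 1.74, SE 0.34), also with close replicates. Both were named because DESeq2 called them, after their values were seen.

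Cell cycle genes overlapped between the colours: of 22 tested, 0 lay higher and 0 lower in both RFP libraries (2 higher with cells thinned to 2000 UMIs). Their median log2 ratio of RFP to YFP was 1.02 between the libraries numbered 1 and -0.197 between those numbered 2. Top2a, which untangles DNA in dividing cells, had 40.1 and 41.4 CPM in RFP and 16 and 52.3 CPM in YFP. YFP 1 was the lowest library and YFP 2 the highest. Of 18 immediate-early genes 5 lay higher and 1 lower (3 and 0 with library totals in place of TMM factors or without the Ptprc filter), with Egr1, a direct target of ERK signalling, at 160.5 and 185 CPM in RFP and 102 and 36.9 CPM in YFP. Of 13 heat shock genes 4 lay higher and 0 lower (7 when cells with other-type markers were left out), and the inducible Hspa1a followed the library number, at 405 and 103 CPM in RFP and 301 and 70 CPM in YFP. Among 20 adhesion and matrix genes 5 lay higher and 0 lower (10 without cells with other-type markers). Of 17 glycolysis and hypoxia genes 3 lay higher and 1 lower (1 and 1 without cells with other-type markers), and of 16 Wnt and Notch genes 3 higher and 3 lower (7 and 4 of the 15 then tested). Wnt7b, a ligand of lung epithelium, had 6.5 and 28.4 CPM in RFP and 5.17 and 5.1 CPM in YFP, whereas Nkd1, a target and inhibitor of Wnt signalling, had 93.5 and 40.9 CPM in RFP and 139 and 146 CPM in YFP (log2 fold change -1.08, SE 0.53).

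Genes that mark mutant cells at 2 weeks were mostly higher in both RFP libraries already at 4 days, at levels that differed strongly between RFP 1 and RFP 2. The list was chosen by the study on these samples, so its direction is not independent evidence. Of 13 such genes tested, 11 lay higher in both RFP libraries and 0 lower, with a median log2 fold change of 6.35, or 4.46 with the genes absent from YFP at their lower bounds. Dlk1, an imprinted gene for a Notch-related membrane protein (chromosome 12, 109452823 to 109463336, plus strand), had 592 UMIs over both RFP libraries and 1 over both YFP libraries. Its levels were 14.8 and 32.6 CPM in the RFP libraries and 0 and 0.0601 CPM in the YFP libraries, and the ratio of the groups was 582 with a counting interval of 104 to 23044 (420.5 with RFP 1 alone and 928 with RFP 2 alone). Confetti libraries held 0 UMIs of it. Meg3, the non-coding gene downstream of Dlk1 (109541001 to 109571726), had 38.2 and 25.7 CPM in RFP and 5 and 2.46 CPM in YFP (log2 fold change 3.11, SE 1.00), and here RFP 1 was the highest library. Confetti libraries had 4.56 CPM in Confetti RFP and 5.3 CPM in Confetti YFP. The RFP libraries thus exceeded the YFP libraries of 4 days and the Confetti libraries for both genes of the locus. Hmga2, a chromatin protein of embryonic tissues, had 3.96 and 145 CPM in RFP and 0.339 and 1.38 CPM in YFP. Sox9, a transcription factor of the lung tip, had 0.914 and 41.5 CPM in RFP and 0.169 and 0.3 CPM in YFP. Both were far higher in RFP 2 than in RFP 1. Gzme, granzyme E, had 0.914 and 23.8 CPM in RFP and 0 and 0.0601 CPM in YFP, and Cd177 had 1.83 and 2.93 CPM in RFP and 0.339 and 0.721 CPM in YFP. Tff1, a trefoil factor of the stomach, was at 0 in both YFP libraries and had 1.02 and 8.45 CPM in RFP, at least 32.1-fold higher over the group and at least 9.63-fold with RFP 1 alone.

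The genes with the widest gap between the lower RFP and the higher YFP library, among those with at least 50 UMIs, were led by Dlk1, Tff1, Serpinb5, Pthlh and Etv4 on the higher side. Pthlh, parathyroid hormone-related peptide, had 104 UMIs over the RFP group and 1 over the YFP group, a ratio of 102 with a counting interval of 18.0 to 4080. Of these UMIs 24 were in RFP 1 and 80 in RFP 2, for ratios of 34.7 and 247 when each RFP library was taken alone. Gata5, a transcription factor of endoderm, had 8 UMIs in RFP 1, 86 in RFP 2 and 0 over the YFP group. Over both RFP libraries it was at least 30.8-fold higher, and with RFP 1 alone at least 3.85-fold. Meg3, Ereg, Cxcl5 and Mmp3, the metalloprotease stromelysin 1 (2.49 and 9.86 CPM (RFP) against 0.424 and 0.12 CPM (YFP)), followed. RefSeq held 10 windows for 8 of these 15 genes, of which 4 windows of 3 genes (Mmp3, Serpinb2 and Serpinb5) had AP-1 letters, against 7.81% of all windows. On the lower side the gaps were narrower, led by Nexn, an actin-binding protein, with 1.07 and 1.52 CPM in RFP and 3.73 and 7.87 CPM in YFP. Col6a2, a collagen VI chain, had 6.96 and 6.72 CPM in RFP and 13.1 and 22 CPM in YFP, with both RFP libraries nearly equal. Some genes went in opposite directions in the 2 pairs. Ccl4, a chemokine of macrophages and lymphocytes, had 0.0508 and 45.1 CPM in RFP and 6.18 and 3.42 CPM in YFP, and Mgl2, a lectin of macrophages and dendritic cells, had 0.102 and 20.8 CPM in RFP and 1.02 and 3.6 CPM in YFP. RFP 2, the library with the most immune marker UMIs, was the highest for both.

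The share of cells that carried each transcript set the RFP libraries apart. With every cell thinned to 2000 UMIs, an Itga2 UMI was found in 0.607% of cells of RFP 1, 15.4% of RFP 2, 0.331% of YFP 1 and 0.167% of YFP 2. A Cldn4 UMI was found in 1.56%, 17.3%, 0.497% and 0.536% in the same order. An Hmga2 UMI was found in 0.290%, 15.1%, 0.0552% and 0.0335%. RFP 2 exceeded the other libraries for these 3 genes, with 95% intervals (exact Clopper-Pearson) of 13.7% to 17.3% for Itga2, 15.5% to 19.3% for Cldn4 and 13.4% to 17.0% for Hmga2. These intervals cover counting error over cells of 1 library and not the spread between libraries, which was larger. RFP 1 lay above both YFP libraries for all 3 genes, by a small margin beside that of RFP 2. Without thinning, an Itga2 UMI was found in 1.21%, 22.8%, 0.931% and 0.167% of cells, and thinning left out 10, 3, 14 and 3 cells with fewer UMIs. Cells with a Ptprc UMI of RFP 2, mostly leukocytes by that mark, gave a level for cells of another type at the same 2000 UMIs (median of 5025 UMIs before thinning), although natural killer cells are known to carry Itga2. Of these 157 cells, 1.27% (2 cells) had an Itga2 UMI. In the same cells 0 had a Cldn4 UMI, 1.27% an Hmga2 UMI, 2.55% a Krt8 UMI, 2.55% an Areg UMI and 19.7% an Sftpc UMI. UMIs of Krt8 and Areg were found in more cells. A Krt8 UMI was found in 43.9%, 52.6%, 36.4% and 36.5% of cells and an Areg UMI in 20.8%, 36.5%, 14.3% and 14.5%. Both RFP libraries exceeded the YFP libraries for both genes. Dlk1 was found in few cells, 0.448% in RFP 1, 1.52% in RFP 2 and 0.0335% in YFP 2, and 0 of 1812 cells in YFP 1, which allows a share of cells with a UMI at this depth of up to 0.166% (3 cells). An Sftpc UMI was found in 99.3%, 68.8%, 98.2% and 99.1% of cells, so that only RFP 2 held many cells without such a UMI. Most cells with a Ptprc UMI of RFP 1 also had an Sftpc UMI (share given below). In that library a UMI therefore does not show that a cell kept the gene. The median share of a cell's UMIs taken by Sftpc was 14.45%, 6.925%, 15.9% and 14.7%.

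**Figure D4:**
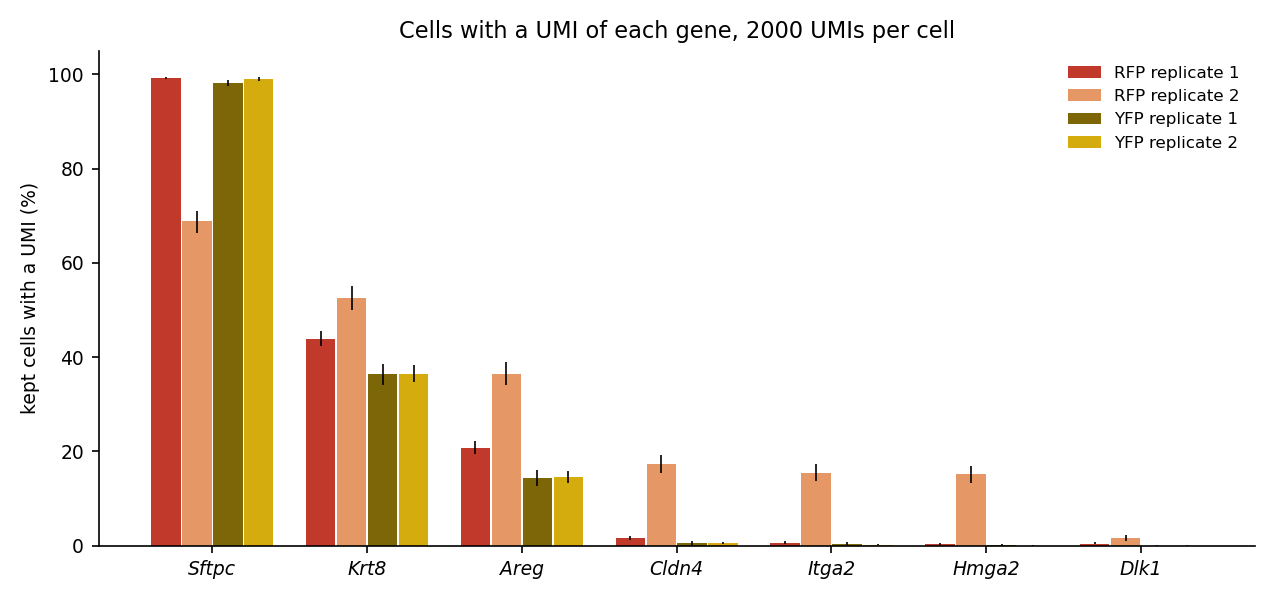
Percentage of kept cells with at least 1 UMI (y axis) of each gene (x axis) in the 4 libraries, after thinning each cell to 2000 UMIs, with exact Clopper-Pearson 95% intervals that cover counting error only. Cldn4, Itga2 and Hmga2 bars stand out in RFP 2 alone (15.1% to 17.3%), whereas Krt8 and Areg are raised in both RFP libraries.

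Within RFP 2, UMIs of Cldn4, Hmga2 and Areg were more frequent in cells with an Itga2 UMI than in cells without one. Many cells with a Cldn4 or Hmga2 UMI nonetheless had no Itga2 UMI. Cells with other-type markers were left out here, and cells of 1 library are not replicates, so the shares are a description. Of 238 cells with an Itga2 UMI, 53.4% (127 cells) also had a Cldn4 UMI, against 11.8% (138 cells) of 1171 cells without one. For Hmga2 the shares were 52.5% (125 cells) and 9.39% (110 cells), and for Areg 75.6% and 32.1%. Surfactant went the other way, with an Sftpc UMI in 18.5% of cells with Itga2 and in 83.5% of cells without, and an Sftpb UMI in 14.3% and 82.9%. A Lcn2 UMI was found in 2.52% and 78.4%. Epcam, the antigen used in the sort, was alike in both (40.3% and 39.0%). The Sftpc share of cells with Itga2 was no higher than that given above for cells with a Ptprc UMI of RFP 2, thinned alike. An Sftpc UMI in such a cell therefore does not show that it kept the gene. RFP 1 held only 20 cells with an Itga2 UMI after the same filter, of which 30% had an Hmga2 UMI and 80% an Areg UMI, against 0.136% and 20.6% of its other 3666 cells. An Sftpc UMI was found in 80% of these 20 cells, and in 86.5% (32 of 37) of the cells with a Ptprc UMI of RFP 1, thinned alike. In all, 2.01% of cells in RFP 1, 31.1% in RFP 2, 0.600% in YFP 1 and 0.486% in YFP 2 had a UMI of at least 1 of Itga2, Cldn4 and Hmga2.

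**Figure D5:**
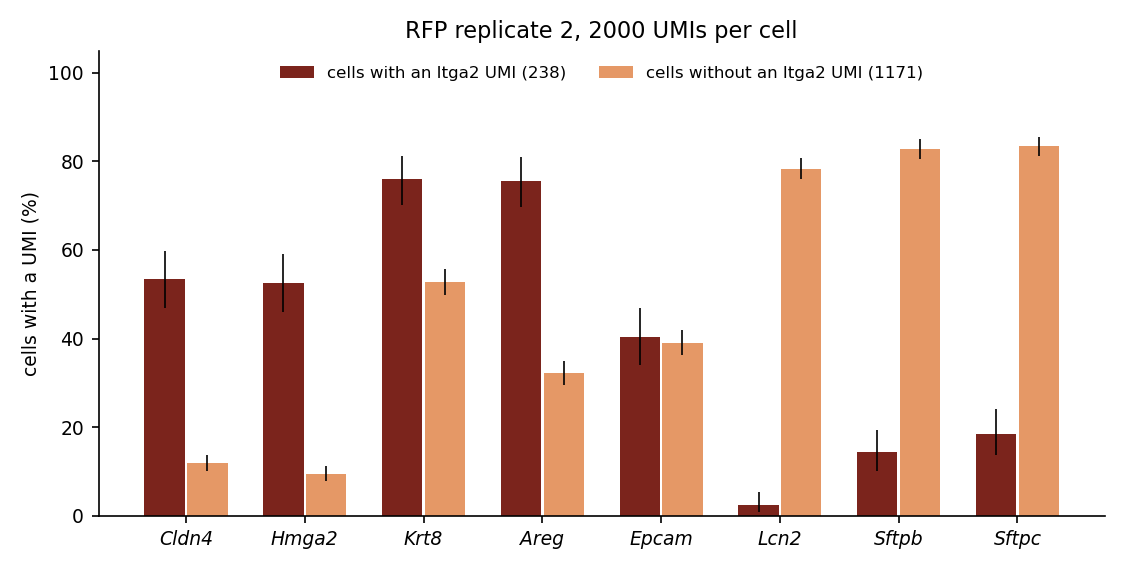
Percentage of cells of RFP replicate 2 with a UMI (y axis) of each gene (x axis), for 238 cells with an Itga2 UMI (dark) and 1171 cells without (light), at 2000 UMIs per cell and with exact 95% intervals for counting error. Cldn4, Hmga2, Krt8 and Areg are more frequent beside Itga2, Epcam is alike, and Lcn2, Sftpb and Sftpc are less frequent.

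Markers of other cell types stood out in single libraries. Of 14 immune markers tested 0 lay higher and 0 lower in both RFP libraries, yet RFP 2 alone lay above both YFP libraries for 12 of them, with a summed level of 830.7 CPM. Of 8 endothelial markers 0 lay higher and 1 lower in both RFP libraries (Egfl7, 37.1 and 19.6 CPM (RFP) against 109.5 and 46.6 CPM (YFP)), with a median log2 fold change of -1.55 and a summed level of 505.9 CPM in YFP 1 and 101.9 to 215.6 CPM in the other 3 libraries. Of 8 mesenchymal markers 0 lay higher and 0 lower, with a median of -1.45, and the collagen gene Col1a1 was at 2.39 CPM in RFP 1, 7.37 CPM in YFP 1, 0.12 CPM in YFP 2 and 0 in RFP 2. Without cells that held 3 or more UMIs of these markers, the DATP list had 18 of 23 members higher, the AT2 list 16 of 27 lower, the sterol list 13 of 17 lower and the EGFR family 6 of 10 higher in both RFP libraries, beside 16.3% of all genes higher and 15.6% lower. The summed level of airway secretory markers, which that filter did not use, was highest in RFP 2 as well. It was 16287 CPM there against 4809 CPM in RFP 1, 9445 CPM in YFP 1 and 7278 CPM in YFP 2. Most of this sum was Scgb1a1, and RFP 2 alone lay above both YFP libraries for 2 of 7 markers (28.6%, against 34.9% of all genes). Of 7 such markers 0 lay higher and 1 lower in both RFP libraries. The secretoglobin Scgb1a1, their defining gene, had 4711 and 16126 CPM in RFP and 9274 and 7178 CPM in YFP, and without cells with other-type markers 1633 and 5098 CPM (RFP) against 918 and 3361 CPM (YFP). With markers of 4 other cell types at 0, Scgb1a1 among them, the DATP list had 18 of 23 members higher and 0 lower. The AT2 list then had 15 of 27 lower and 0 higher, beside 15.1% of all genes higher and 14% lower. The part of these cells in the size of the DATP and AT2 differences of RFP 2 was not tested. The sort was on EpCAM, and Epcam had 317 and 272 CPM in RFP and 248 and 252 CPM in YFP.

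The same contrast at 2 weeks, in other libraries, was read beside these results. Of the 1875 genes higher in both RFP libraries at 4 days, 1058 (56.4%) were also higher in both RFP libraries than in both YFP libraries at 2 weeks, when 27.1% of all genes were, and these 1058 made up 26.2% of the genes higher at 2 weeks. Of the 2020 lower genes, 929 (46%) were lower again at 2 weeks, when 22.6% of all genes were. DATP genes were higher for 20 of 23 members at 2 weeks, AT2 genes lower for 19 of 27 and sterol genes lower for 15 of 17. Cell cycle genes, of which none separated the colours at 4 days, were higher for 12 of 22. Dlk1 reached 369.7 and 312 CPM in the RFP libraries and 5.09 and 56.7 CPM in the YFP libraries of 2 weeks, and Areg reached 998 and 1249.6 CPM in the RFP libraries and 356 and 241.1 CPM in the YFP libraries of 2 weeks. Whether the colour difference itself changed with time was tested as an interaction in edgeR, which called 0 of 14856 genes (269 at an unadjusted p under 0.05, and 0 called by DESeq2).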

How the data were processed

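Cells were sorted as EpCAM+RFP+ or EpCAM+YFP+ and sequenced on the 10x Genomics 3 prime platform. The authors deposited unnormalized UMI counts per gene and barcode made with Cell Ranger against GRCm38 (3.1.0 in the submitters' processing notes, 5.0.1 in the file headers). The labels and the study's methods name different versions of the chemistry. By the study's methods the libraries were made on 2 days, but neither they nor the labels say which library on which day, so batch could not be fitted and cannot be told apart from the difference between replicates.

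Here barcodes were filtered as described above (13019 in the 4 libraries, 10577 passing quality, 10195 without Ptprc), no doublets were removed, and UMIs of 31040 non-mitochondrial genes were summed per library. Sums were tested with edgeR 4.0.16 (R 4.3.3): TMM normalization, filterByExpr, all groups of the 10 libraries in 1 quasi-likelihood fit and Benjamini-Hochberg adjustment over all genes tested. DESeq2 1.42.0 was an alternative. Ratios per pair were taken with a prior count of 2. Folds of genes with 3 or fewer UMIs in YFP are given from the summed UMIs, with exact intervals. The fit was tested on data simulated for RFP against YFP at 4 days. There 77% of changes of 2-fold and 97% of changes of 4-fold were recovered. The simulation gave every gene the same small spread between libraries and left out genes of few UMIs. It also left out the strong differences between replicates described above. These shares therefore check the fit and do not tell how many changes could be found in the real libraries. Depth limits genes of few UMIs, and intervals and limits cover counting error only. Coordinates are those of GENCODE M21 (GRCm38).

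Named genes were up to 6 per list with the largest absolute log2 fold change, list members counted by direction, up to 15 with the widest gap in each direction, up to 10 with opposite ratios, and genes the study discusses, of which the text gives a selection; some genes are not reported here. The comparison, the gene lists and the markers were chosen with earlier results of these data known. The markers used to leave out cells of other types, the single-library counts and the motifs were chosen after seeing the data.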

Additional observations from a re-analysis of the deposited data

Results flagged for a closer look

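H2-Eb1, which encodes an MHC class II chain, was higher in both RFP libraries at 4 days (867 and 936 CPM in RFP and 779.6 and 684 CPM in YFP) and lower in both RFP libraries at 2 weeks (414 and 349.8 CPM in the RFP libraries and 559.8 and 676 CPM in the YFP libraries of 2 weeks). The difference of the log2 fold changes, 4 days minus 2 weeks, was 0.99 (SE 0.37), and the edgeR interaction test did not pass (adjusted p = 0.9999 over 14856 genes). Without cells that held other-type markers the log2 fold change of H2-Eb1 at 4 days was -0.22, against 0.30 with them.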

How the results depend on the processing

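The count of 0 genes called by edgeR became 39 with DESeq2, 99 without the filter on low counts, and between 0 and 1 when 1 library was left out. The 1 call, without Red2Kras 4d RFP replicate 1, was Fosl1 (adjusted p = 0.0497); that fit holds 1 RFP library of 4 days, which is assumed to vary like the other groups. Without RFP 2, 119 genes had an unadjusted p under 0.05, against 1812 without RFP 1. With the replicate number as a block the edgeR fit called 3 genes over the 8 Red2Kras libraries and 1 over the 4 libraries of 4 days. The labels do not say that equal numbers mark the same lungs, although libraries of the same number had like shares of female cells, so the pairing was kept as an alternative. Deviations of same-numbered libraries from their group means had a correlation of 0.485. The interferon list, with 7 genes lower in all pairs, had 4 without the Ptprc filter, 1 with markers of 4 other types at 0, and 0 with cells of other-type markers left out. For the shares of cells, 50 of 84 alternatives gave the same result. Over the 98 named genes, 1287 of 1361 refits kept the direction of the log2 fold change and stayed short of the threshold. Of the others, 53 passed it in the same direction, and 21 changed sign. Sign changes with 1 library left out were seen in genes whose libraries overlapped: Il1r1 (-0.55 to 0.67), Ccl20 (-0.81 to 4.13), Lcn2 (-1.22 to 0.70), Erbb3 (-0.41 to 0.07), Egfr (-0.24 to 0.17), Mgl2 (-4.45 to 3.34), Ccl4 (-6.42 to 3.24), Col1a1 (-9.47 to 3.34), Top2a (-0.36 to 1.35), Nfkbia (-0.45 to 0.78), Ndrg1 (-0.05 to 4.88), Hspa1a (-0.85 to 1.86) and Scgb1a1 (-0.80 to 0.97). Other sign changes were those of H2-Eb1 (-0.22 with cells of other-type markers left out), Top2a (-0.10 with markers of 4 other types at 0) and Egfr (0.33 with cells thinned to 2000 UMIs). The cause was not tested.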
